A study of Mus musculus with 15 samples.

Results

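The genes described here are 10 early response genes, the zinc-finger factors Egr1, Egr2 and Egr3, the orphan nuclear receptors Nr4a1, Nr4a2 and Nr4a3, the immediate early response genes Ier2, Ier3 and Ier5, and Btg2. They were chosen by name, by matching the Ensembl gene IDs of the count table to mouse gene symbols. All 10 were among the 45232 genes of the table, and all 10 were among the 17834 genes that passed a filter on low counts and were tested. The filter keeps a gene that is well counted in any 1 group, so a gene that is high in a single group can pass it.

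RNA sequencing had been performed on LSK cells (marrow cells without lineage markers that carry Sca-1 and c-Kit, a gate around stem cells and early progenitors) in 15 libraries of 5 groups with 3 each. The 4 mutant groups were CD45.2+ LSK cells with conditional Jak2 V617F and Idh2 R140Q alleles on a C57BL/6 background (C57BL/6J in the methods), recovered from lethally irradiated CD45.1 mice that had received them together with CD45.1 WT cells. Both alleles had been switched on by polyI:polyC through Mx1-Cre, a recombinase that interferon induces in blood cells and in other tissues as well, so all 4 mutant groups share the alleles, the induction and the transplant. The groups received vehicle, AG221 (an inhibitor of mutant IDH2) at 40 mg/kg per the sample labels, ruxolitinib (an inhibitor of JAK1 and JAK2) at 60 mg/kg, or both drugs, by gavage 2 times a day for 21 to 28 days, with the last dose about 1.5 hours before sacrifice. The fifth group was CD45.2+ LSK cells labelled Wild Type (WT) of the same strain. Whether the WT cells had been transplanted or the WT mice gavaged, and whether a library is 1 mouse or a pool, is not given in the sources used here, so p-values measure the spread between these libraries. The methods give both sexes and ages from 6 months to 1.5 years for the mice of all experiments, without the age behind each library.

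Early response genes are switched on within minutes of a signal, without new protein synthesis, and their mRNAs are short-lived. Growth factor and cytokine receptors reach them through RAS, ERK and the serum response factor SRF, which binds the CArG box, and cyclic AMP and calcium reach them through CREB, which binds the cyclic AMP response element (CRE). EGR proteins bind GC-rich DNA, NR4A receptors act without a known natural ligand, the IER proteins are small regulators of growth and survival, and BTG2 is an antiproliferative protein that recruits deadenylases to mRNA. In blood, Egr1 and the Nr4a genes are known for holding stem cells in quiescence, and the combined loss of Nr4a1 and Nr4a3 in mice leads to myeloid leukemia.

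To show the letters through which these signals are known to act, the bases just before the start site were searched for a few members. RefSeq windows on GRCm38.p6 were at hand for 7 of the 10 members, in 11 windows, since Egr2 has several start sites, and the search covered the 250 bases before each start on both strands. The 4 windows shown are those of 3 members that rose in the mutant cells, with matches, and of Ier5, whose groups overlapped, without a match. Capitals mark a match to TGACGTCA (the full CRE), to its core TGACG or to the CArG box. A full CRE contains the core on both strands and counts as 2 cores.
Btg2: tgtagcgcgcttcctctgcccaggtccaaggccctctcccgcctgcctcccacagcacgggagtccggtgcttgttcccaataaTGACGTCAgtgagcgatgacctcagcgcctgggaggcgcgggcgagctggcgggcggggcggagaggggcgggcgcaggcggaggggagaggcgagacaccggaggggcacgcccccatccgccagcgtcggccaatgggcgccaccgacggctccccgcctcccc
Nr4a1: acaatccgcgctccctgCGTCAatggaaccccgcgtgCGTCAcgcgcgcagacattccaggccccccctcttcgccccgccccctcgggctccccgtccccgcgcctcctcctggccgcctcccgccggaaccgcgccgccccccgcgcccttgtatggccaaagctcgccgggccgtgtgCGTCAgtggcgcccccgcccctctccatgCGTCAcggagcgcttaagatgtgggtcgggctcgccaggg
Egr2: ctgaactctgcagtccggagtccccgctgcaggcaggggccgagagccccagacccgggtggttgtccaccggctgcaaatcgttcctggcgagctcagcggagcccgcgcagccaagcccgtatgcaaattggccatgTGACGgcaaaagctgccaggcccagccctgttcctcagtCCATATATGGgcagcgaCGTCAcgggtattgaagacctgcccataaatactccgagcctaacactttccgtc
Ier5: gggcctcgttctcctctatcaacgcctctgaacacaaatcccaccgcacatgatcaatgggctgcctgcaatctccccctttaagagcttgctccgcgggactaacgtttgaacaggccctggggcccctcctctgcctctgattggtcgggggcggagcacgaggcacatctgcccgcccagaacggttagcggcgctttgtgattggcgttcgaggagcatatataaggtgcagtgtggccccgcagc

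The Btg2 window (chr1:134079156-134079405, minus strand) held a full CRE, which 1.55% of all 32851 windows hold. The Nr4a1 window (chr15:101266596-101266845, plus strand) held 4 TGACG cores. The Egr2 window (chr10:67537619-67537868, plus strand) held 2 such cores and a CArG box 63 to 72 bases before the start, and a CArG box was present in 1.47% of all windows. A TGACG core was present in 17.8% of all windows and in at least 1 window of 5 of the 7 members, Egr2, Nr4a1, Nr4a2, Nr4a3 and Btg2. The windows of Ier3 and Ier5 (chr1:155099637-155099886, minus strand) held no match to any of the 6 motifs searched, and neither did 1 of the 5 Egr2 windows. No member window held TTCNNNGAA, the letters bound by STAT factors (7.02% of all windows), TGANTCA of AP-1 (6.75%) or GCGTGGGCG, the letters EGR proteins themselves bind (0.536%). Such a match is a description of letters only, since binding was not measured.

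Each library held 18836625 to 32174287 counted reads. Kit, the receptor that defines the sort, stood at 1361 ± 166 CPM (reads of a gene scaled to the TMM-adjusted library size; SD, n = 3) in WT and at 1120 ± 255 in vehicle, and Ly6a, which encodes Sca-1, at 71.1 ± 10.6 and 83.6 ± 77.1. The WT libraries had Xist at 481 ± 28.2 CPM against 4.31 ± 3.46 in vehicle and Ddx3y, a Y-linked gene, at 0.0335 ± 0.0581 against 180 ± 6.4. Sex and genotype thus cannot be told apart in vehicle against WT. The levels of Xist and Ddx3y in the AG221, ruxolitinib and combined groups are not reported here, so whether sex differs in their comparisons is not shown. Names of libraries from vehicle, AG221 or ruxolitinib mice start with A, and those of WT or combined treatment start with B. What the letters stand for is not stated, and letter and group cannot be told apart. In 3 libraries, AG221 A8, AG221 A10 and ruxolitinib A16, the 1775 tested genes richest in GC stood low, with medians of -1.04, -0.75 and -0.39 on the log2 CPM scale relative to each gene's mean, while the other 12 libraries lay between -0.16 and 0.35. Results that move with these libraries are given with and without them.

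Most of the members were far higher in vehicle-treated mutant LSK cells than in WT LSK cells. Of the 10 members, 8 were higher and passed the test (edgeR's quasi-likelihood model, with an adjusted p under 0.05 by the Benjamini-Hochberg procedure over all genes), against 15.4% of all tested genes called higher in this comparison. The median log2 fold change of the 10 members was 3.13, and that of all tested genes was -0.0915. In 9 of the 10, every vehicle library lay above every WT library, which was so for 25.6% of all tested genes. In these bulk samples more cells of a type and more RNA per cell cannot be told apart. Nr4a3 (adjusted p = 0.0502) and Ier5 (adjusted p = 0.785, edgeR's quasi-likelihood test) did not pass.

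**Figure D1:**
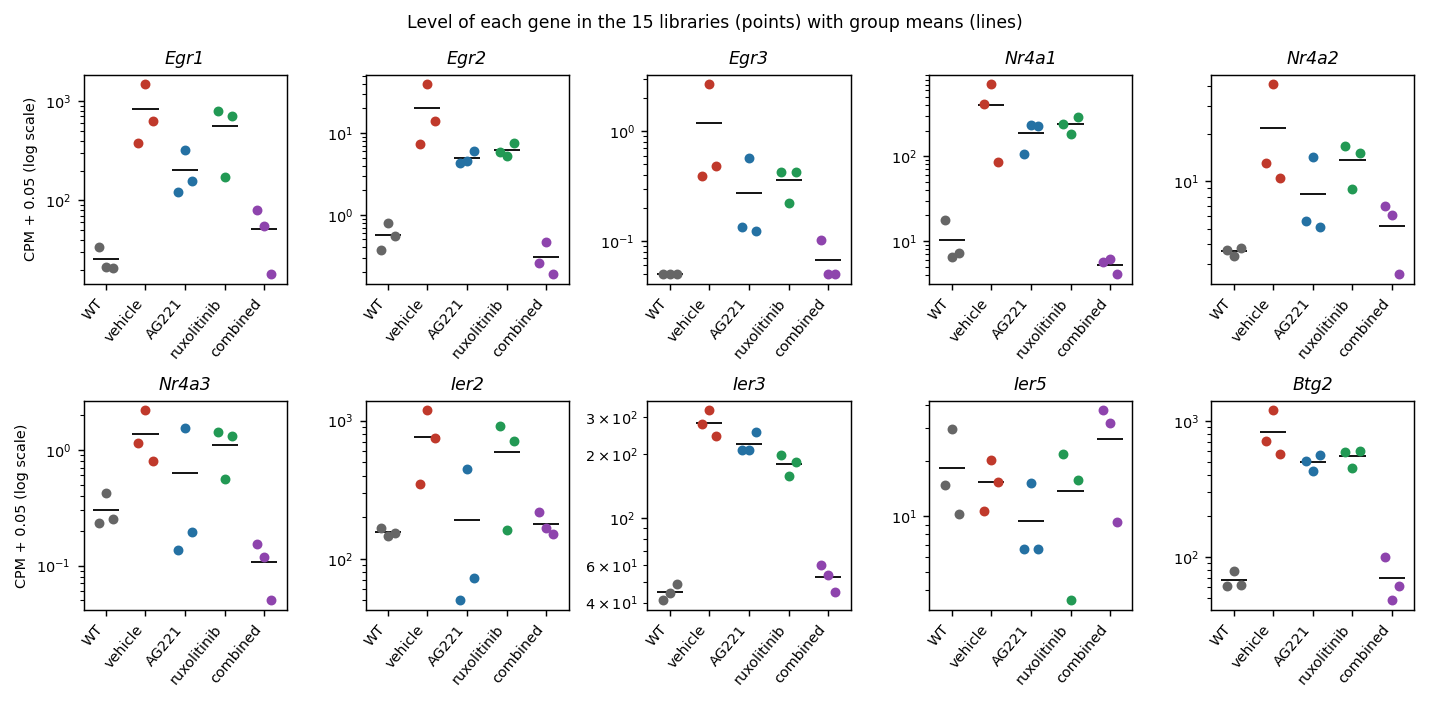
Level of each of the 10 genes in the 15 libraries, as CPM with 0.05 added, on log axes that differ between panels; points are libraries in 5 groups of 3 and lines are group means. Btg2, Ier3, Nr4a1, Egr1 and Egr2 were higher in each of the 9 vehicle, AG221 and ruxolitinib libraries than in any of the 6 WT and combined libraries, while the groups of Ier5 overlapped. The names of the 9 libraries begin with A and those of the 6 with B.

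Among the EGR genes, Egr1, which couples growth signals to transcription, stood at 34.1, 21.5 and 20.8 CPM in WT and at 375.2, 1485 and 631.2 CPM in vehicle. The lowest vehicle library was thus well above the highest WT library, and the log2 fold change was 5.03 ± 0.75 (SE, adjusted p = 0.00111 by edgeR). Egr2, a relative that also controls myelination and T cell tolerance, had 0.327, 0.741 and 0.503 CPM in WT and 7.33, 39.5 and 13.8 CPM in vehicle. It rose by 5.25 ± 0.60 on the log2 scale (adjusted p = 0.000186 by edgeR), from a level under 1 CPM. Without vehicle A3, its highest library, the value was 4.34, and that of Egr1 was 4.33. Egr3 had no read in any WT library and 9, 83 and 11 reads in vehicle libraries A1, A3 and A4. Against a floor of 3 counts over the WT group, Egr3 was at least 35.9-fold higher in vehicle, and without the A3 library, which holds most of its reads, at least 11.2-fold. At this bound, a log2 value of 5.17, the median of the 10 members remained 3.13.

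Among the nuclear receptors, Nr4a1 (Nur77), an inducer of cell death in T cells and a brake on stem cell cycling, had 17.5, 6.34 and 7.18 CPM in WT and 417.8, 708.9 and 85.2 CPM in vehicle. The vehicle libraries differed 8.32-fold among themselves, and the lowest still exceeded the highest WT library. Its log2 fold change was 5.29 ± 0.68 (adjusted p = 0.000458 by edgeR), 4.62 without vehicle A3 and 5.92 without WT B28. Nr4a2 (Nurr1), best known for dopamine neurons, was at 3.63, 3.34 and 3.76 CPM in WT and at 13, 41.1 and 10.5 CPM in vehicle. Without the A3 library its log2 fold change fell from 2.59 to 1.74 and still passed. Nr4a3 (Nor1) had 5, 11 and 6 reads in the WT libraries and 29, 67 and 19 in the vehicle libraries, a log2 fold change of 2.38 ± 0.87 that just missed the threshold. DESeq2 called Nr4a3 as well, with an adjusted p of 0.0304.

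Among the IER genes and Btg2, Ier3 (IEX-1), which modulates survival and is a target of NF-kB, was the steadiest. It stood at 40.9, 44.3 and 48.9 CPM in WT and at 278.4, 322 and 242.4 CPM in vehicle, with libraries of a group within 1.33-fold of each other. Its log2 fold change of 2.65 ± 0.16 had the smallest adjusted p of the members, 5.57e-07 by edgeR's quasi-likelihood test. Btg2 was at 61.4, 79.4 and 62 CPM in WT and at 715.5, 1197 and 570.4 CPM in vehicle, a rise of 3.61 ± 0.31 (adjusted p = 1.7e-05 by edgeR). Ier2, a nuclear protein induced by growth factors, was already abundant in WT at 166.2, 147.2 and 153.8 CPM and reached 344.9, 1188 and 748.2 CPM in vehicle. Its log2 fold change of 2.29 ± 0.76 passed with an adjusted p of 0.035 by edgeR, but did not pass in 5 of the 6 fits that left out 1 library of these groups. Ier5, a regulator of the heat shock factor HSF1, was at 14.7, 29.4 and 10.2 CPM in WT and at 10.6, 20 and 15.2 CPM in vehicle. The groups of Ier5 overlapped, and 2 SE on either side of its log2 difference of -0.24 ran from -1.5 to 1.01.

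**Figure D2:**
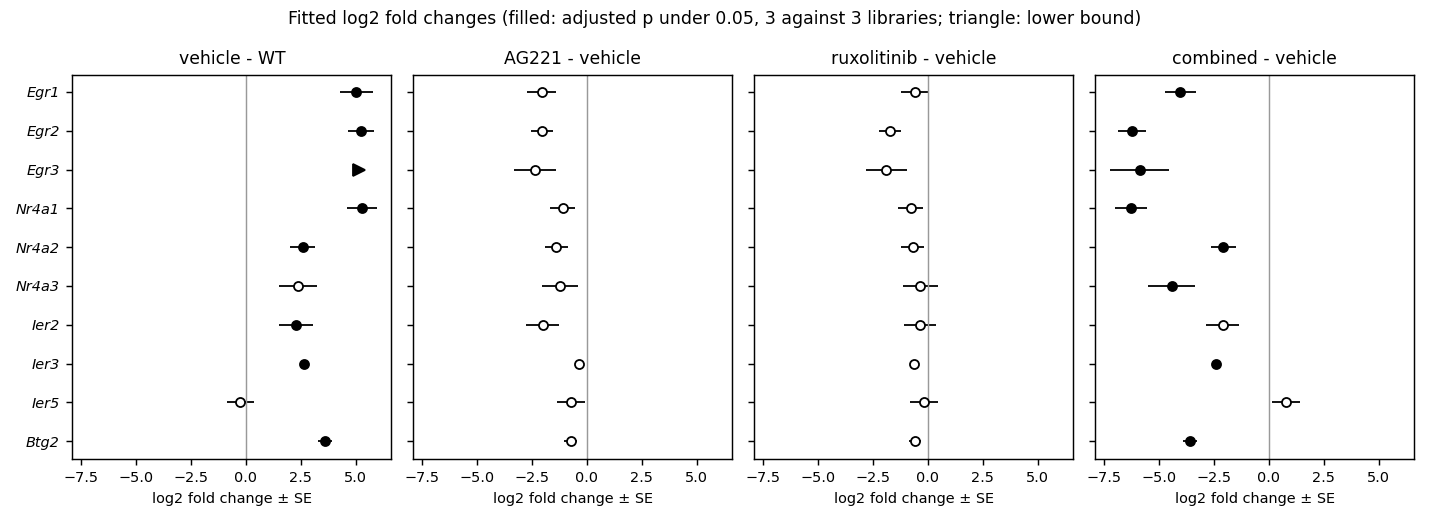
Fitted log2 fold change of each member (horizontal axis, bars of 1 SE) in 4 comparisons of 3 against 3 libraries; filled points passed an adjusted p of 0.05 and open points did not, and the triangle is the lower bound for Egr3, which had no read in WT. The filled points lie right of 0 for vehicle against WT (8 members with the triangle) and left of 0 for combined treatment against vehicle (8 members), and none is filled for either drug alone.

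Neither drug alone gave a change of a member that passed the test. With AG221, all 10 members had lower fitted levels than with vehicle, with log2 differences of -2.37 to -0.33, and 0 were called by edgeR, against 0.987% of all tested genes called in either direction. At an unadjusted p under 0.05 there were 6 such members, and the share of all genes at that level is not given here. DESeq2 called 3, Egr1, Egr2 and Ier2, against 7.51% of its tested genes called lower. In Egr1, Egr2 and Btg2, every AG221 library lay below every vehicle library, which was so for 7.26% of all tested genes. With ruxolitinib, all 10 fitted levels were again lower, with log2 differences of -1.89 to -0.17. Of these, 0 were called by edgeR, against 0.0168% of all tested genes in either direction. DESeq2 also called 0, against 0.232% of its tested genes called lower. There were 2 members (Egr2 and Ier3) at an unadjusted p under 0.05, again without a share of all genes to set beside them. Only for Ier3 did every ruxolitinib library of the 3 lie below every vehicle library, a pattern that 4.5% of all tested genes shared.

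Egr1 stood at 121.5, 324.7 and 156.5 CPM in the AG221 libraries A8, A9 and A10, all under the lowest vehicle library. In the ruxolitinib libraries A14, A16 and A17, Egr1 was at 799.2, 173.9 and 711.3 CPM, a spread that spans the lower part of the vehicle group. The log2 difference from vehicle was -2.05 ± 0.66 (adjusted p = 0.0971) for AG221 and -0.56 ± 0.63 (adjusted p of 1) for ruxolitinib, both by edgeR. Without vehicle A3, the AG221 differences were smaller, at -1.33 for Egr1, -1.12 for Egr2, -0.81 for Egr3 and -0.52 for Nr4a2. Egr2 was even within both groups, at 4.23, 4.5 and 5.89 CPM with AG221 and at 5.75, 5.13 and 7.46 CPM with ruxolitinib. Its differences from vehicle were -2.05 ± 0.51 (adjusted p = 0.0611) and -1.73 ± 0.50 (adjusted p = 0.707) by edgeR. Against WT, where its mean was 0.524 CPM, Egr2 was higher by 3.20 ± 0.56 with AG221 and by 3.53 ± 0.57 with ruxolitinib on the log2 scale, and both differences passed the test. Egr3 had 2, 11 and 2 reads with AG221 and 8, 4 and 10 with ruxolitinib, counts that overlap those of the 2 lower vehicle libraries.

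Nr4a1 remained high with either drug. It was at 107.1, 234 and 228.9 CPM with AG221 and at 237, 183.9 and 290.4 CPM with ruxolitinib, inside the vehicle range of 85.2 to 708.9 CPM. Btg2 was at 505.1, 428.9 and 566.5 CPM with AG221 and at 591.2, 449.9 and 606.1 CPM with ruxolitinib, and Ier3 at 208.3, 209.1 and 254.1 CPM and at 199.3, 157.6 and 183.4 CPM. For these 3 genes, the libraries of a drug-treated group differed by at most 2.18-fold. Ier3 gave the tightest estimates, -0.33 ± 0.15 for AG221 and -0.64 ± 0.15 for ruxolitinib on the log2 scale, with adjusted p-values of 0.199 and 0.409 by edgeR.

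The other members varied between libraries of the same group. Ier2 was at 49.9, 449.5 and 72 CPM in the AG221 libraries A8, A9 and A10 and at 912.3, 162.5 and 712.4 CPM in the ruxolitinib libraries A14, A16 and A17. Nr4a3 had 2, 32 and 4 reads with AG221 and 29, 12 and 34 with ruxolitinib. Nr4a2 was at 5.56, 14.2 and 5.06 CPM and at 16.7, 8.84 and 15 CPM, and Ier5 at 6.58, 15 and 6.58 CPM and at 21.7, 3.46 and 15.7 CPM. In these 4 genes, and in Egr1, Egr3 and Nr4a1, A8 and A10 were the lowest AG221 libraries and A16 the lowest ruxolitinib library. These are the same 3 libraries in which GC-rich genes stood low. For Nr4a1, A10 was close to A9, at 228.9 against 234 CPM. In Egr2, Ier3 and Btg2, A16 was again the lowest ruxolitinib library, while A8 and A10 were not both below A9. The members' own transcripts differ in GC content: Ier2, at 60.9%, was in the top 3% of tested genes (percentile 97.8), Nr4a1, Egr3 and Egr1 were at percentiles 80 to 83.2, and Btg2 and Nr4a2 were at 49.4 and 42.8. An alternative fit corrected each library for its trend with GC content. After this correction, Ier2 was at 118.7, 427.9 and 141.9 CPM in A8, A9 and A10. For either drug against vehicle, 0 members were called, with 0.862% of genes called lower for AG221 and 0.0169% for ruxolitinib. Ier2 was then called lower in combined against vehicle (adjusted p = 0.00448 by edgeR), where 5.64% of genes were. Beyond this correction, the part that GC content has in the levels of the single genes was not tested. Without the A9 library, AG221 against vehicle gave 6 members called lower by edgeR (Egr1, Egr2, Egr3, Nr4a2, Nr4a3 and Ier2), but calls rose over all genes too, with 16.6% of the 19125 genes then tested called lower. With the 3 libraries low in GC-rich genes left out, 0 members were called for ruxolitinib against vehicle, a comparison in which 0 of the 22662 genes then tested were called. AG221 was then represented by A9 alone, assumed to vary like the other groups, so no count is given for AG221 against vehicle.

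**Figure D3:**
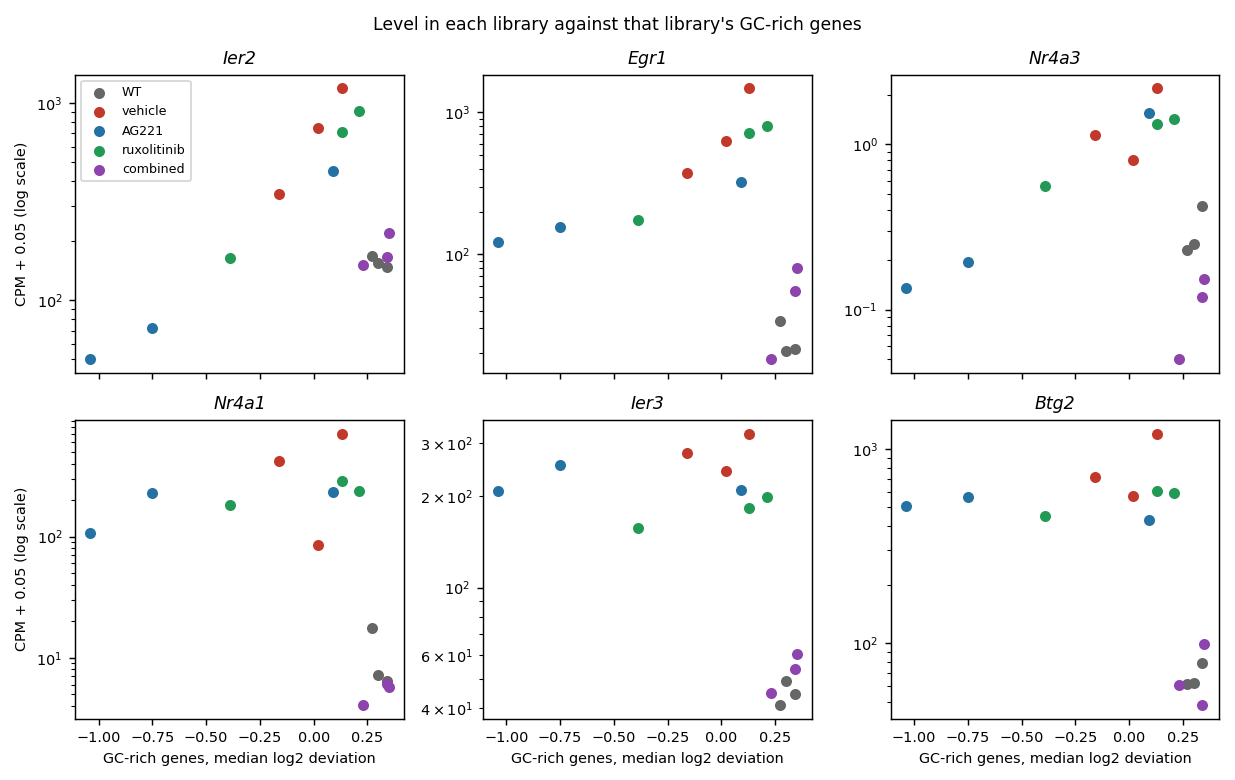
Level of 6 members in each library (CPM with 0.05 added, log axes) against the median log2 deviation of the GC-rich genes in that library; colours are the 5 groups. The AG221 and ruxolitinib libraries with low GC-rich genes lay at -1.04, -0.75 and -0.39. In Ier2, Egr1, Nr4a3 and Nr4a1 they had the lowest levels of their groups. In Ier3 and Btg2 this held for ruxolitinib but not for AG221. Nr4a1, Ier3 and Btg2 differed by at most 2.18-fold within these groups. The WT and combined libraries, with GC-rich medians of 0.23 to 0.35, had the lowest levels of Nr4a1, Ier3, Btg2 and Egr1.

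With both drugs, most members were far lower than with vehicle. Of the 10, 8 were lower and passed edgeR's test (Egr1, Egr2, Egr3, Nr4a1, Nr4a2, Nr4a3, Ier3 and Btg2), against 4.21% of all tested genes called lower. The median log2 fold change of the members was -3.8, and that of all tested genes was 0.0368. Every combined library lay below every vehicle library in 9 of the 10 members, which was so for 15.2% of all tested genes. This comparison shares the vehicle libraries with that of vehicle against WT. In both, libraries named with A are set against libraries named with B, so letter and group cannot be told apart.

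Nr4a1 and Egr2 had the largest fitted changes. Nr4a1 was at 5.64, 6.01 and 4.02 CPM in the combined libraries B24, B25 and B26, all below the lowest WT library. Its log2 change from vehicle was -6.27 ± 0.72 (adjusted p = 0.000376 by edgeR). Egr2 had 4, 12 and 3 reads and a change of -6.23 ± 0.65 (adjusted p = 0.000171 by edgeR). Egr1 was at 80.5, 55 and 18.1 CPM, 2 libraries above and 1 below the WT range, and changed by -4.02 ± 0.72 (adjusted p = 0.00378 by edgeR). Egr3 had a single read in the 3 combined libraries together, and the ratio of vehicle to combined was 86.2 with an exact 95% interval of 15.1 to 3439 from counting alone. Nr4a3 had 2, 2 and 0 reads, and the ratio was 24.1 with an interval of 9.15 to 89.8.

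Btg2 was at 99.5, 48 and 61.1 CPM with combined treatment, around its WT levels, and fell by 3.57 on the log2 scale (SE 0.31, adjusted p = 3.24e-05 by edgeR). Ier3, at 60.2, 53.9 and 44.8 CPM, fell by 2.41 (SE 0.16, adjusted p = 4.61e-06 by edgeR). Nr4a2, at 6.89, 6.08 and 2.54 CPM, had a change of -2.06 ± 0.55 (adjusted p = 0.0266 by edgeR). Ier2, at 218.5, 165.8 and 151 CPM, had a log2 difference of -2.09 ± 0.76 whose adjusted p was 0.0905 by edgeR and 0.0189 by DESeq2. Ier5 was again apart, with 37.3, 32 and 9.25 CPM, a higher mean than in any other group but an overlap with all of them (log2 difference from vehicle 0.78 ± 0.63). The count of 8 members became 5 in the fits without vehicle A3 or without any 1 of the 3 combined libraries. These fits lost Egr3, Nr4a2 and Nr4a3, with 1.58% to 2.97% of the genes then tested called lower. The other 5, Egr1, Egr2, Nr4a1, Ier3 and Btg2, were called in each of the 6 fits that left out 1 library. Without vehicle A3 the log2 changes were smaller, at -3.30 for Egr1, -5.30 for Egr2, -5.59 for Nr4a1 and -1.19 for Nr4a2, and the ratio of Egr3 was 26.8 (interval 4.29 to 1113). With the 3 libraries low in GC-rich genes left out, 9 members were called lower in combined against vehicle, with Ier2 added (adjusted p = 0.00258 by edgeR), against 6.01% of the 22662 genes then tested, and 9 were called higher in vehicle against WT, with Nr4a3 added (adjusted p = 0.00889), against 16.5%.

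Against WT, combined treatment gave 0 members called by edgeR or DESeq2, and 0 at an unadjusted p under 0.05, a level at which the share of all genes is not given here. Over all tested genes, edgeR called 3.25% in either direction. DESeq2 called 4.39% of its tested genes higher and 3.86% lower. The libraries of both groups are named with B. A lack of calls does not show equal levels. For Btg2 the log2 difference was 0.04, with 2 SE reaching from -0.53 to 0.61, and for Ier3 it was 0.24, from -0.06 to 0.55. For Nr4a1, whose combined libraries all lay below the WT libraries, it was -0.98, from -2.19 to 0.23. For Nr4a3 the ratio of WT to combined was 4.4 with a counting interval of 1.5 to 17.6, and the test across libraries gave an adjusted p of 0.285 (edgeR).

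Combined treatment was also compared with each drug alone, which again sets libraries named with B against libraries named with A. Against AG221, 6 members were lower (Egr1, Egr2, Nr4a1, Nr4a3, Ier3 and Btg2), against 14.3% of all tested genes called lower. Against ruxolitinib the same 6 members were lower, against 3.94% of all tested genes. Nr4a1 changed most in both, by -5.18 ± 0.69 and -5.50 ± 0.70 on the log2 scale, and Ier3 had the smallest adjusted p-values, 2.58e-05 and 0.000132 by edgeR. With 1 library left out, Egr1 and Nr4a3 lost their calls against AG221 in 4 fits each, including those without AG221 A9 (log2 changes of -1.44 and -0.96), and Nr4a3 lost its call against ruxolitinib in 5 of 6 fits. AG221 and ruxolitinib were not told apart in any member, with 0 called by edgeR or DESeq2 and 2 at an unadjusted p under 0.05 (Ier2 and Egr1). The share of all genes at that unadjusted level is not given here. Over all tested genes, edgeR called 3.43% in either direction. DESeq2 called 8.75% of its tested genes higher and 8.25% lower. Against WT, 6 members were higher with AG221 (22.2% of all tested genes called higher) and 7 with ruxolitinib (16.1%), the added member being Nr4a2. Of these, Egr3 and, for ruxolitinib, Nr4a2 did not pass in some fits that left out a library, for example without WT B30, where adjusted p-values were 0.0601 for Egr3 with AG221 and 0.074 and 0.0798 for Egr3 and Nr4a2 with ruxolitinib (edgeR). With the 3 libraries low in GC-rich genes left out, 8 members were higher than WT with AG221 (6.43% of genes) and 9 with ruxolitinib (9.33%), Nr4a3 and Ier2 being called in addition. In that fit, 5 members were lower with combined treatment than with AG221 (0.41% of genes), since Egr1 lost its call (adjusted p = 0.0857 by edgeR), and 7 were lower than with ruxolitinib (3.13%), with Ier2 added.

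The change with both drugs minus the sum of the changes with each drug was negative and passed the test in 3 members, Nr4a1, Ier3 and Btg2, against 2.82% of all tested genes called in that direction. For Btg2 this difference was -2.26 ± 0.41 on the log2 scale (adjusted p = 0.0181 by edgeR), since the single drugs changed it by -0.73 and -0.59 and both together by -3.57. For Ier3 it was -1.44 ± 0.22 (adjusted p = 0.0084 by edgeR) and for Nr4a1 -4.41 ± 0.85 (adjusted p = 0.0246 by edgeR). With the 3 libraries low in GC-rich genes left out, the values were -2.17, -1.44 and -4.88 and the adjusted p-values 0.164, 0.0583 and 0.109 by edgeR, so 0 passed, in a fit where AG221 was 1 library and 0.106% of all genes were called in that direction. With 1 library left out, Nr4a1 lost its call in 4 of the 12 fits (without AG221 A10, ruxolitinib A17, combined B24 or combined B25, adjusted p of 0.0532 to 0.0771 by edgeR) and Btg2 in 1 (without combined B25, 0.0619), while Ier3 was called in all 12. This test sets the combined group, whose names begin with B, against groups whose names all begin with A, and letter and treatment cannot be told apart in it.

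In 6 members (Egr1, Egr2, Egr3, Nr4a1, Ier3 and Btg2), every vehicle, AG221 and ruxolitinib library was above every WT or combined library. This pattern was shared by 4.43% of all tested genes. It also parts every library named with A from every library named with B, and letter and group cannot be told apart in it. For Egr3 it rests on 2 reads in AG221 A8 and 2 in A10 against 1 in combined B24, under the floor of 3 counts. In the heat shock, neutrophil and T and NK cell lists, the summed level was split in the same way. The 10 heat shock genes, which cells induce under stress, summed to 2728 to 5369 CPM in the vehicle, AG221 and ruxolitinib libraries and to 1916 to 2512 CPM in the WT and combined libraries. The 10 neutrophil genes (such as Elane, Mpo and S100a8) summed to 7824 to 20467 CPM in the former and to 3476 to 7727 CPM in the latter. Of the neutrophil genes, 1 (Ly6g) had at most 3 reads in each WT library, and of the heat shock genes, 2 (Hspa1a and Hspb1) had at most 3 in each combined library. The 10 T and NK cell genes summed to 412.5 to 763.5 CPM and to 162.2 to 404.5 CPM, with 2 of them (Ncr1 and Gzma) at no more than 3 reads in each vehicle library and 2 (Cd8a and Ncr1) in each combined library. Nkg7 alone made up 98.9% of the T and NK sum in vehicle and 93.6% in WT, and the median log2 fold change of the 8 tested genes of that list in vehicle against WT was -1.15. In vehicle against WT, 2 of 9 tested heat shock genes, 4 of 10 neutrophil genes and 1 of 8 tested T and NK genes were called higher and 0 lower. In combined treatment against vehicle, 3 heat shock genes and 1 neutrophil gene were called lower and 0 T and NK genes. For these and the next lists, the shares of all tested genes were 15.4% higher and 17.9% lower in vehicle against WT. They were 8.28% higher and 4.21% lower in combined against vehicle. Of 8 mast cell and basophil genes, 4 were called higher in vehicle against WT (median log2 fold change 2.32) and 2 lower in combined against vehicle (median -0.7), and their sum was 263.1 to 393 CPM in WT, 713.1 to 1323 in vehicle and 648.7 to 861.8 with combined treatment. Of 10 B lineage genes 6 and of 8 plasma cell genes 6 were called lower in vehicle against WT, and 0 of either list in combined against vehicle. A further plasma cell gene (1 of the 8) was called higher in vehicle against WT. Of the erythroid, megakaryocyte, and monocyte and dendritic cell genes, 3 each were called higher in vehicle against WT. The neutrophil sum was highest with AG221 (17357 to 20467 CPM), above the 7824 to 12839 CPM of vehicle. Mpo alone made up 59.7% of this sum with AG221, 66.1% in vehicle and 63.4% in WT. The summed LSK markers were at 4403 to 4797 CPM in WT and at 2514 to 3893 CPM in the mutant groups. The part of these cell types and of stress in the members' levels was not tested.

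Levels can be compared between the members only per length, here as CPM per kilobase of exon. In vehicle, Ier2 was the most abundant member at 500 ± 277 CPM per kilobase (SD, n = 3), followed by Btg2 (302 ± 120), Ier3 (248 ± 35.2), Egr1 (185 ± 130) and Nr4a1 (115 ± 88.9), and the libraries of each neighbouring pair in this order overlapped. A gap separated these from Egr2 (5.95 ± 5.01), Nr4a2 (5.31 ± 4.18) and Ier5 (4.66 ± 1.42), which again overlapped, and from Egr3 (0.259 ± 0.297) and Nr4a3 (0.221 ± 0.121). In WT the order was Ier2 (102 ± 6.33), Ier3 (39.5 ± 3.53) and Btg2 (24.7 ± 3.73), each apart from the next, then Egr1 (5.67 ± 1.67), Ier5 (5.51 ± 3.06) and Nr4a1 (2.94 ± 1.77), which overlapped. On this scale, Egr1 and Nr4a1 were at percentiles 59 and 47.4 of all tested genes in WT, at 98.8 and 97.7 in vehicle and at 70.8 and 38.3 with both drugs.

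The genes of kinases and factors that feed into the members were called in both directions. Of 13 RAS, RAF, MEK, ERK and RSK genes, 2 were higher and 1 lower in vehicle against WT, and 4 were higher and 1 lower with combined treatment against vehicle. Of all tested genes, 15.4% were higher and 17.9% lower in the first comparison, and 8.28% were higher and 4.21% lower in the second. Whether these short lists differ from those shares was not tested. Among those higher with combined treatment were Hras and Map2k2 (MEK2), by 2.38 and 2.29 on the log2 scale. Of 6 SRF genes, 1 was lower in vehicle against WT and 2 were higher with combined treatment, Srf itself by 1.27 ± 0.27 and its partner Elk3 by 0.53 ± 0.15. Of 8 CREB genes, 0 were called in vehicle against WT, and with combined treatment Crtc3, a CREB coactivator, was higher by 1.10 and Creb1 fell by 0.54. Nab1, which represses EGR proteins by binding them, rose by 1.0 ± 0.18 with combined treatment, while Nab2, itself an EGR target, differed by 0.58 ± 0.53 without passing.

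**Figure D4:**
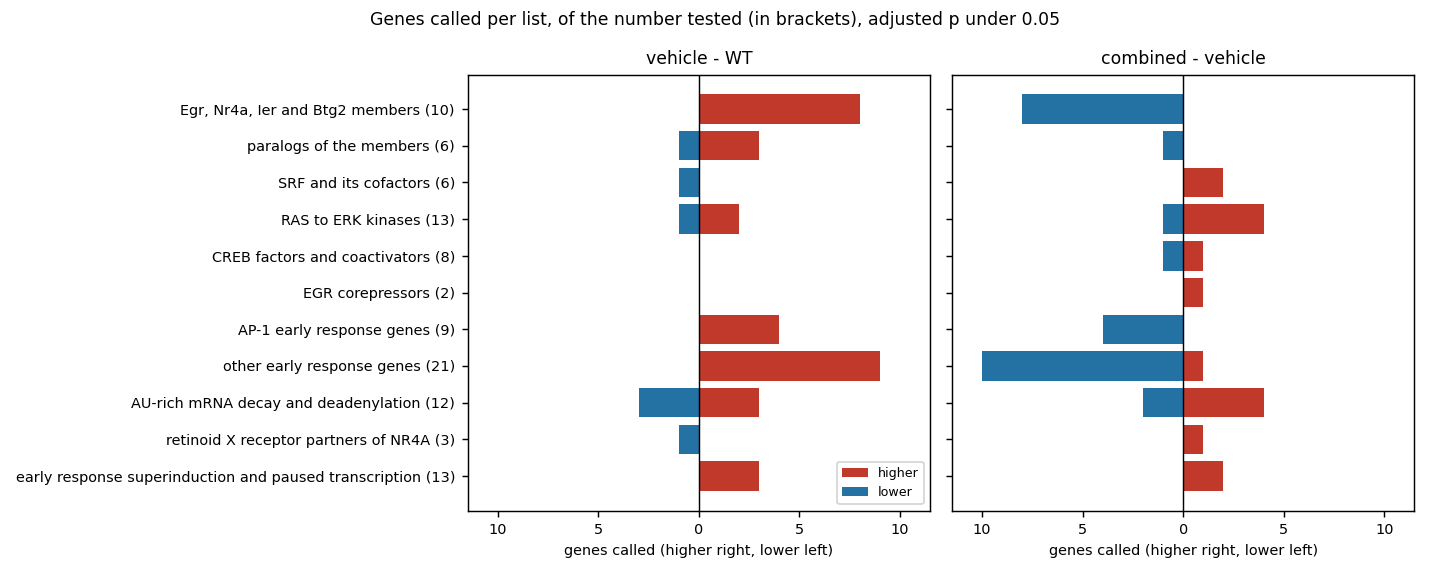
Number of genes called higher (right) and lower (left) at an adjusted p under 0.05 in each gene list, with the number tested in brackets, for vehicle against WT and for combined treatment against vehicle. The 10 members, the 9 AP-1 genes and the 21 other early response genes have bars to the right in the first panel and to the left in the second, while the RAS to ERK, SRF, EGR corepressor and retinoid X receptor lists have longer bars to the right in the second. Over all tested genes, 15.4% were called higher and 17.9% lower in the first, and 8.28% higher and 4.21% lower in the second.

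Other early response genes moved with the members. Of 9 AP-1 genes, 4 (Fos, Fosb, Junb and Atf3) were higher in vehicle against WT and the same 4 were lower with combined treatment against vehicle. The median log2 fold changes of this list were 1.6 and -1.64. Among all tested genes, 15.4% were called higher in the first comparison, and 4.21% lower and 8.28% higher in the second. Atf3, a factor of the stress response, went from 0.334 ± 0.0885 CPM in WT to 50.9 ± 5.84 in vehicle and 0.326 ± 0.161 with both drugs, and Fos from 106 ± 23.5 to 3169 ± 1627 and 77.7 ± 48.2. Of 21 further early response genes, 9 were higher in vehicle against WT, and 10 were lower and 1 higher with combined treatment. Klf6 went from 71.6 ± 5.96 CPM in WT to 863 ± 164 in vehicle, Zfp36, which destabilizes AU-rich mRNAs, from 195 ± 34.4 to 2119 ± 838, Klf2 from 0.81 ± 0.466 to 14.7 ± 4.86 and Sgk1 from 12.8 ± 2.47 to 33.2 ± 0.708.

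Among paralogs, Egr4 followed the members. It had 0, 1 and 0 reads in WT, 24, 200 and 27 in vehicle, 1, 12 and 2 with AG221, 56, 4 and 35 with ruxolitinib and none in the combined libraries. The ratio of vehicle to WT was 262 with an exact counting interval of 46.7 to 10404. Against a floor of 3 counts over the combined group, Egr4 was at least 70-fold higher in vehicle. Without vehicle A3, which held 200 of the reads, the ratio to WT was 85.5 (interval 14.7 to 3442) and the bound against the combined group 22.8-fold. Of the relatives of Btg2, Tob1 fell by 1.84 on the log2 scale (SE 0.61) in vehicle against WT, while Btg3 was higher by 1.14. Ier3ip1, which was put in the same list but is named as a partner of IER3 and is not a paralog, was higher by 0.51. Of the 6 genes of this list that were tested, Ier3ip1 included, 3 were higher and 1 lower in vehicle against WT. With combined treatment, 1 was lower. The shares of all tested genes were 15.4%, 17.9% and 4.21% in the same order.

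The genes that act on such mRNAs moved in both directions. All tested genes did so too, with 15.4% higher and 17.9% lower in vehicle against WT. With combined treatment against vehicle, 8.28% were higher and 4.21% lower. Of 12 AU-rich decay and deadenylation genes, 3 were higher and 3 lower in vehicle against WT, and 4 were higher and 2 lower with combined treatment, among them Cnot6 (higher by 1.49 ± 0.18), Hnrnpd (1.20), Elavl1 (1.93) and Zfp36l2 (2.04). Of 13 genes of paused transcription, 3 were higher in vehicle against WT (Supt5, Supt4a and Nelfcd, by 0.61, 0.59 and 0.49), and 2 were higher with combined treatment. Of the 3 retinoid X receptors, which pair with Nr4a1 and Nr4a2, Rxra fell by 1.47 (SE 0.33) in vehicle against WT and Rxrb was higher with combined treatment by 0.91 ± 0.17.

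To find the genes most like the members, the log2 CPM of each gene was standardized over the 15 libraries and set against the members' mean profile. The median root mean square distance of all tested genes was 1.44, and the members themselves lay at 0.216 (Egr1) to 0.659 (Ier2), apart from Ier5 at 1.37. The 10 nearest genes outside the list were Egr4 (0.266), Ppp1r15a (0.314), Trib1 (0.325), Gm15890, Nfkbiz (0.34), Gm38257, Hist1h2bg, Gm26532, Gm43817 and Hist1h2bc (0.408). Ppp1r15a (GADD34), which reverses the stress-induced block of translation, stood at 57.3 ± 11.7 CPM in WT, 427 ± 83.7 in vehicle and 49 ± 7.93 in the combined group. Nfkbiz, which acts in the NF-kB pathway, stood at 23.2 ± 3.29, 100 ± 30.4 and 16.7 ± 3.08 CPM. Trib1, a pseudokinase that promotes the loss of C/EBPa, stood at 4.45 ± 1.08, 23.5 ± 6.02 and 2.9 ± 0.871 CPM. With a prior count of 0.5 in place of 2, 9 of these 10 genes were again the nearest, and with the 5 group means in place of libraries 0 were, so the ranking rests on how single libraries vary.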

How the data were processed

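LSK RNA was amplified with SMARTer reagents and sequenced as paired-end 50 bp reads. Per the methods and labels, the authors aligned reads to mm10 (GRCm38) with STAR 2.5.1a and counted them per Ensembl gene with STAR; the Ensembl release and strand setting are not given in the sources used here. The deposited raw counts were used as they were, and the authors' table of DESeq2 1.6.3 normalized values, which equal the counts divided by 1 size factor per library, was not used. Symbols and coordinates came from GENCODE M21, which matched 44585 of 45232 IDs.

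Counts were normalized by TMM. All 15 libraries entered 1 edgeR 4.0.16 quasi-likelihood fit (R 4.3.3) with 5 groups and no covariates, after filterByExpr. CPM use TMM-scaled library sizes. With 18836625 to 32174287 reads a library, a floor of 3 counts is 0.0957 to 0.157 CPM, and intervals and floors cover counting error only. Groups follow the sample titles. No pair of libraries of a group was within sampling noise (chi-square per degree of freedom of 13.7 or above). The fit was tested on simulated data.

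The members and lists were chosen with earlier results of these data known. Named genes are the members, at most 4 called genes a list (or the 2 most abundant where fewer than 2 were called) and the 10 genes nearest the members' profile, with Kit, Ly6a, Xist, Ddx3y and the marker genes at 3 reads or fewer named after their values were seen. Alternatives were DESeq2 1.42.0, RLE and upper quartile scaling, other filters, only the groups compared, each library left out, a threshold of 0.0001, and, chosen after seeing the data, GC content offsets and leaving out 3 libraries. Values of some genes named by this rule are not reported here.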

Additional observations from a re-analysis of the deposited data

Results flagged for a closer look

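In 3 members the effect of AG221 given with ruxolitinib differed from its effect without, by a test of the difference itself. The departure on the log2 scale was -4.41 for Nr4a1, -1.44 for Ier3 and -2.26 for Btg2, each with an adjusted p under the threshold of 0.05 by edgeR's quasi-likelihood test (0.0246, 0.0084 and 0.0181). With the 3 libraries low in GC-rich genes left out, which left 1 AG221 library, the values were -4.88, -1.44 and -2.17 and none passed (adjusted p of 0.109, 0.0583 and 0.164 by edgeR). The letter in the library names could not be told apart from combined treatment in this test.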

How the results depend on the processing

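At an adjusted p under 0.0001, the members called were 2 for vehicle against WT, 2 for combined against vehicle, 1 for combined against AG221, 0 for combined against ruxolitinib, 2 for AG221 against WT, 2 for ruxolitinib against WT and 0 for the interaction. The shares of all genes at that threshold are not given here. At least 10 counts in every library left 5 called in vehicle against WT, where 13% of the genes then tested were called higher. This filter left 5 in combined against vehicle, where 6.52% were called lower. Egr2, Egr3 and Nr4a3 were not tested with it. AG221 against vehicle, with 0 called, gave 3 with DESeq2 (7.51% of genes called lower), 1 with upper quartile scaling (0.936%) and 2 with no filter (0.369%). It gave 0 to 6 when 1 library was left out, with 0 to 16.6% of genes called lower. With 1 library left out, combined against vehicle gave 5 to 8 members, with 1.58% to 3.22% of genes called lower. AG221 against ruxolitinib then gave 0 to 2 (0 to 16.5% of genes) and the interaction 1 to 4 (0.204% to 11.3%). For the interaction, GC content offsets gave 4, with 4.67% of genes called lower. Upper quartile scaling moved the median log2 fold change of all genes the most, from 0.0691 to -0.245 for the interaction. The signs of all members under this scaling are not given here. In other fits, some log2 differences changed sign. With 1 library left out, Ier5 in vehicle against WT ran from -0.51 to 0.30 (without WT B30), and ruxolitinib against vehicle ran from -0.92 to 0.16 for Egr1, -1.01 to 0.19 for Nr4a2, -0.62 to 0.19 for Nr4a3 and -0.80 to 0.12 for Ier2, all highest without vehicle A3, and from -0.67 to 0.29 for Ier5. Without AG221 A9, Ier2 was at 1.55 in combined against AG221 (lowest -0.57), at -1.34 in AG221 against WT (highest 0.75) and at 1.91 in the interaction (lowest -0.23), Nr4a3 at -1.06 in AG221 against WT (highest 1.67) and Nr4a2 at 0.65 in the interaction (lowest -0.87). Ier5 in ruxolitinib against WT ran from -0.89 to 0.13 and Btg2 in combined against WT from -0.29 to 0.26. In ruxolitinib against vehicle, leaving out ruxolitinib A16 gave 0.09 for Ier2 and 0.29 for Ier5, and leaving out the 3 libraries gave 0.08 and 0.28. Nr4a3 in AG221 against vehicle became 0.15 without the 3 libraries. None of these values had passed the test, and the cause was not tested. Depth limits Egr3 and Nr4a3, whose counts fell to 0 to 12 reads in many libraries. No paired analysis was possible because the groups share no replicate numbers.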
